A study of Rattus norvegicus with 16 samples.

Results

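Chemokine ligands are small secreted or cell-bound proteins that guide leucocytes, and 10 of them were followed in PCCl3 cells, a differentiated line of rat thyroid follicular cells, after siRNA silencing of *Pax8*, a transcription factor of thyroid differentiation. The genes were *Ccl2*, *Ccl5*, *Ccl7*, *Ccl20*, *Cxcl1*, *Cxcl2*, *Cxcl9*, *Cxcl10*, *Cxcl12* and *Cx3cl1*. They were chosen by name, as those whose RefSeq accession on the array resolved to these symbols, and comprised 13 of the 41012 probes and 10 of the 8899 genes that could be named. In the si*Pax8* cells 6 of the 10 genes were higher than in wild type (wt) cells. *Ccl7* was settled in direction only, and the others ran from 1.28-fold for the smaller *Cx3cl1* probe to 5.24-fold for *Ccl2*. The size for *Ccl2* rests on a wt signal near background and depends on the background correction. *Cxcl12* was lower, at 60.9% and 58.2% of its wt level by its 2 probes. Of all named genes 7.26% were higher and 9.46% lower than in wt cells. Against cells that had received a scrambled siRNA (siScramble) *Ccl2* and *Cx3cl1* were higher and *Ccl5* was lower. *Cxcl12* was lower there by 1 of its 2 probes. Of all named genes 1.67% were higher and 1.31% lower in that comparison. The count of 3 genes fell to 0 or 1 when any 1 replicate was left out. *Ccl20*, *Cxcl2* and *Cxcl9* were at background in nearly every hybridization.

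All groups were PCCl3 cells grown with donor calf serum and the usual 6 hormones, TSH among them. The si*Pax8* and siScramble cells were transfected with Lipofectamine and 10 ng/ml of siRNA, and RNA was taken after 48 hours. The labels call the remaining group wild type, while the study's methods and a legend describe it in different ways, with and without the transfection reagent, so effects of transfection are part of the comparison with wt cells. Each comparison had 4 biological replicates on 8 two-colour arrays, each replicate being hybridized a second time with exchanged dyes, and the design scheme of the study names the same si*Pax8* samples for both comparisons. The model is 1 cell line without leucocytes or stroma.

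The values below are log2 ratios of normalized intensity, si*Pax8* over control, averaged over the dye swaps of a replicate. The direction follows the dye labels. Against wt cells the balance of probes is contrary to the way the study's text words its numbers of up- and down-regulated probes. More probes were lower (3374) than higher (2886) at the threshold below, where the study words more as up-regulated. Such totals do not by themselves settle a direction. For *Ccl2* the study words the same direction as here. A probe passed when limma's adjusted p over all probes was under 0.005, and a gene when each of its probes passed in 1 direction. *Pax8* itself, measured by probe A_43_P12538, had log2 ratios to wt cells of -0.84, -0.57, -0.59 and -0.26, with a mean of -0.56 ± 0.24 (SD, n = 4; limma adjusted p = 0.000472). Relative to siScramble cells they were -0.58, -0.29, -0.12 and -0.01, with a mean of -0.25 ± 0.25 (SD, n = 4; limma adjusted p = 0.143), which did not pass. Of the spots of an array, 52% to 60.8% were well above background in a channel. Of 13 measured thyroid follicular markers 11 were well above background on at least 8 of the 16 arrays in si*Pax8* cells, the keratin genes *Krt8* and *Krt18* being the exceptions. Against wt cells 9 passed as lower, beside 9.46% of all named genes, and *Pax8*, the target of the siRNA, is itself one of the 9. *Epcam* passed as higher (0.22, limma adjusted p = 0.000695), with no wt array above background. Against siScramble cells 1 of the 13 passed, as lower.

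Chemokines bind G protein-coupled receptors on the surface of migrating cells and are held on glycosaminoglycans of the tissue. CC chemokines such as *Ccl2*, *Ccl7* and *Ccl5* draw monocytes and T cells, CXC chemokines with the glutamate-leucine-arginine motif, *Cxcl1* and *Cxcl2*, draw neutrophils through *Cxcr2*, and *Cxcl9* and *Cxcl10* draw activated T cells through *Cxcr3*. *Cxcl12* is a constitutive ligand of *Cxcr4* and *Ackr3*, and *Cx3cl1* is made as a membrane-bound protein that both tethers and attracts cells. Several of these genes are classical targets of NF-kappaB and of interferon signalling, and thyroid epithelial cells are known to secrete *Cxcl10* and *Ccl2* in autoimmune thyroid disease.

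RefSeq promoters on GRCr8 were found for 8 of the 10 genes (not for *Ccl2* and *Ccl5*). The 250 bases before the start were searched on both strands for an NF-kappaB motif, for the interferon-stimulated response element (GAAA, any 2 bases, GAAA) and for the AP-1 motif TGACTCA, which on the opposite strand reads TGAGTCA. Those of 5 genes are shown. Among the 8 genes with a promoter they include those with the highest ratios to wt cells, their undetected neighbours and the gene that was lower. Capitals mark a match and lower case is the rest.
*Cxcl10* (chr14:15988816-15989065, plus strand, GRCr8): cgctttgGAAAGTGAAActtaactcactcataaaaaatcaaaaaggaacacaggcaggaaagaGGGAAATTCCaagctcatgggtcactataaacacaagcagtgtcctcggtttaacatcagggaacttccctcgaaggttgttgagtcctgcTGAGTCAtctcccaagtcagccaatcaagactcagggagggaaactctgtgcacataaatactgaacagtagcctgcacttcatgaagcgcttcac
*Cxcl9* (chr14:16006916-16007165, plus strand, GRCr8): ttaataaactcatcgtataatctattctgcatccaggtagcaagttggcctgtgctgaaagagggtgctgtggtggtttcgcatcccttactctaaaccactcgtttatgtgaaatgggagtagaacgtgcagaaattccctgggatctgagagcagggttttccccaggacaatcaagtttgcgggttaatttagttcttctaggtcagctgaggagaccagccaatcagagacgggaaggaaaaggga
*Cxcl1* (chr14:17479322-17479571, minus strand, GRCr8): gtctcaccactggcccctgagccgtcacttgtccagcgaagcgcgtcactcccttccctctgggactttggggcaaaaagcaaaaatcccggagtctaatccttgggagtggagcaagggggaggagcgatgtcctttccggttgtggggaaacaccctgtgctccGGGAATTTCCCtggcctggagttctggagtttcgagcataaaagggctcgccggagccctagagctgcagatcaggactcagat
*Cxcl2* (chr14:17467256-17467505, minus strand, GRCr8): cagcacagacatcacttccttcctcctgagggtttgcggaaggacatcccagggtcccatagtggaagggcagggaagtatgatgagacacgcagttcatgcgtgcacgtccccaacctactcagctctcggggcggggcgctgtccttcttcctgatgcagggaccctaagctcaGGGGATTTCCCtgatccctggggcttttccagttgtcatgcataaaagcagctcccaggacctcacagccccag
*Cxcl12* (chr4:152060531-152060780, plus strand, GRCr8): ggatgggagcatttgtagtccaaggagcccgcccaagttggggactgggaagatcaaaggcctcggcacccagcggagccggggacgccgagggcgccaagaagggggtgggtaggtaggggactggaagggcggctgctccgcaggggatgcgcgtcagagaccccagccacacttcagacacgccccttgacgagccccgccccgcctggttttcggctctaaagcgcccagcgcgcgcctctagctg
The *Cxcl10* promoter held a match to each of the 3 motifs, the *Cxcl1* and *Cxcl2* promoters each held 2 overlapping NF-kappaB matches that are shown as 1 run of capitals, and no motif matched in *Cxcl9* and *Cxcl12*. *Ccl20* had an NF-kappaB match at 89 to 80 bases before the start, and *Ccl7* and *Cx3cl1* had no match. An NF-kappaB match was thus found in 4 of the 8 promoters, against 3.54% of all 33469 promoters of this length. The interferon-stimulated response element and AP-1 matched in 1 of 8 promoters each, against 3.41% and 4.05% of all promoters. A match describes letters in the window and is not evidence of a bound factor. *Cxcl1* and *Cxcl2*, whose promoters both hold matches to the NF-kappaB motif, were measured very differently, as described below.

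Against wt cells 7 of the 10 genes passed the threshold, 6 higher and 1 lower. Of all named genes 7.26% were higher and 9.46% were lower. The median log2 ratio of the 10 genes was 0.43, against -0.005 over all named genes. Against siScramble cells 3 of the 10 genes passed, 2 higher and 1 lower, where 1.67% of all named genes were higher and 1.31% lower, and the median of the 10 genes was 0.06. Of *Cxcl12*, 1 of its 2 probes passed in that comparison. The number of genes past the threshold against siScramble cells depended on single replicates: it was 0 without replicate 1, 2 or 3 and 1 without replicate 4, while 6 of the 10 genes had an unadjusted p under 0.05 from limma in each of these fits. Against wt cells it was 7 without any 1 replicate.

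**Figure D1:**
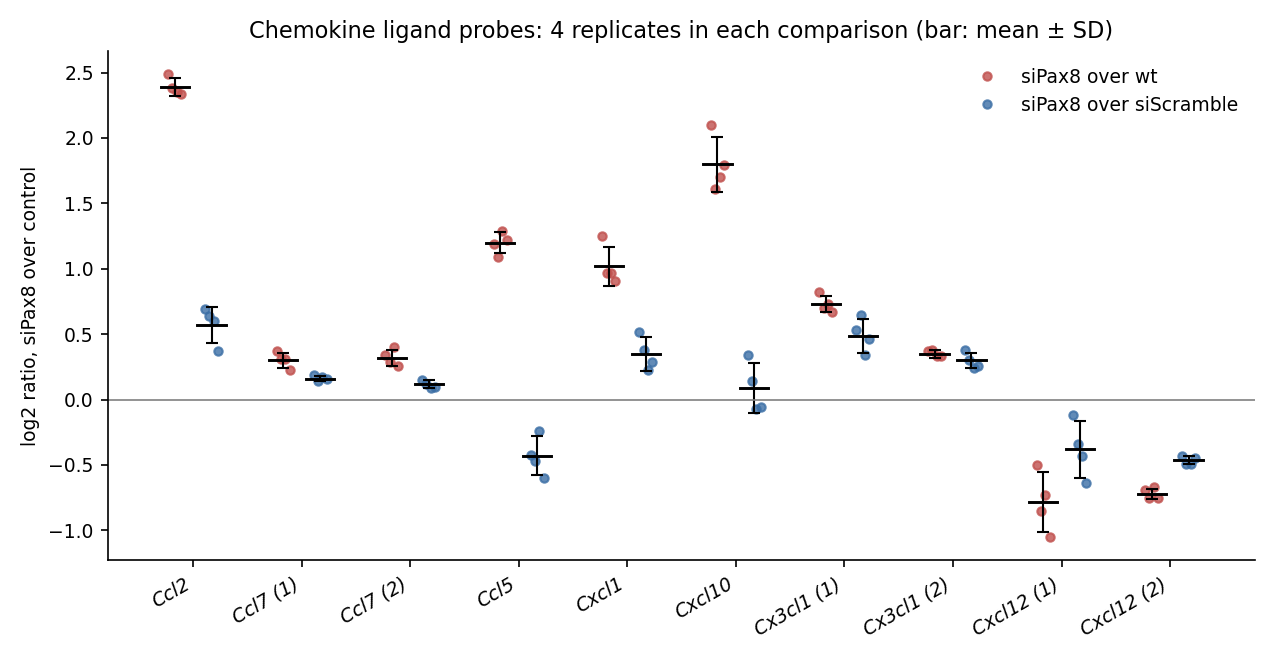
Log2 ratios of si*Pax8* over wt cells (red) and over siScramble cells (blue) for the 10 probes of the 7 chemokine genes with signal above background, where each point is a replicate and bars show the mean ± SD (n = 4). For *Ccl2*, *Ccl5*, *Cxcl1* and *Cxcl10* the red points lie apart from the blue ones, the *Ccl5* points lie on opposite sides of 0, and the *Cxcl12* points lie below 0 in both comparisons; (1) and (2) are, for *Ccl7*, A_44_P1022002 and A_44_P391296, for *Cx3cl1*, A_44_P116591 and A_44_P116597, and for *Cxcl12*, A_44_P1034439 and A_44_P337351.

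*Ccl2*, the main attractant of monocytes, had the largest difference to wt cells among the members. Its probe A_42_P695401 (NM_031530), which is spotted 10 times on each array, gave log2 ratios of 2.49, 2.38, 2.35 and 2.34 in the 4 replicates. The mean was 2.39 ± 0.07 (SD, n = 4), a 5.24-fold level (limma adjusted p = 6.98e-09). The replicates against siScramble cells gave 0.69, 0.64, 0.60 and 0.37, with a mean of 0.57 ± 0.14 (SD, n = 4) and a 1.49-fold level (limma adjusted p = 0.00134). All 8 replicate values were above 0, and the lowest against wt cells exceeded the highest against siScramble cells. Within the 4 slides the wt comparison gave 2.33 to 2.45 and the siScramble comparison 0.53 to 0.64.

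The signal of *Ccl2* in wt cells was close to background. Mean signal over local background was 1.31 at the lowest, 1.43 in the median and 1.74 at the highest over the 8 wt hybridizations, and 41 of 80 spots were well above background, on 7 of 8 arrays. In the si*Pax8* cells on the same arrays it was 8.42, 14.4 and 17, with all 80 spots well above background. In siScramble cells it was 6.58, 9.1 and 11.4, again with all 80 spots above, beside 8.23, 13.8 and 18.5 in the si*Pax8* cells of those arrays. Normalized log2 intensity was 6.53 ± 0.09 in wt, 8.47 ± 0.13 in siScramble and 9.13 ± 0.04 and 9.05 ± 0.07 in si*Pax8* cells (SD, n = 4 each). The scale of the ratio to wt cells thus rests on a dim signal: the intensities processed by Agilent's software gave 4.97 (limma adjusted p = 0.000406). The call against siScramble cells was lost without replicate 1, 2 or 3 (limma adjusted p = 0.00595 to 0.0152), with si*Pax8* in Cy5 alone (0.59, limma adjusted p = 0.00698) and with Agilent's processed intensities (0.74, limma adjusted p = 0.0237).

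*Ccl7*, which lies next to *Ccl2* in the genome and attracts monocytes as well, was measured by probes A_44_P1022002 and A_44_P391296 (NM_001007612). The first gave log2 ratios to wt cells of 0.37, 0.31, 0.31 and 0.23, with a mean of 0.30 ± 0.06 (SD, n = 4; limma adjusted p = 0.000128). A spot of this probe was marked as an outlier, so that its replicate 4 rests on 1 array. The second probe was well above background on all 8 arrays in the silenced cells and on none in wt cells, so its ratio of 0.32 ± 0.06 (SD, n = 4; limma adjusted p = 1e-04) has a wt side at background. On the scale of channel levels (Aquantile), its mean log2 level was 6.78 in si*Pax8* cells against a floor of 6.43 in wt cells, a level at least 1.28-fold that of wt cells. Both were dim, with a median signal over background of 1.23 and 1.12 in wt and of 1.8 and 1.58 in si*Pax8* cells. The mean log2 ratios to siScramble cells were 0.16 ± 0.02 and 0.12 ± 0.03 (SD, n = 4; limma adjusted p = 0.0093 and 0.0366), which did not pass, although all 4 replicates of each probe were above 0. The probes of *Ccl7* differed from each other by -0.02 ± 0.05 against wt cells (SD, n = 4; exact sign-flip p = 0.625, the smallest possible being 0.125). With Agilent's processed intensities the ratios to wt cells were 2.49 and 2.71 (limma adjusted p = 0.00407 and 0.000961), so that only the direction of *Ccl7* is settled by these arrays.

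*Ccl5*, an attractant of T cells and monocytes known as RANTES, moved in opposite directions in the 2 comparisons. Its log2 ratios to wt cells were 1.19, 1.09, 1.29 and 1.22, with a mean of 1.2 ± 0.08 (SD, n = 4), a 2.3-fold level (probe A_44_P304323, NM_031116; limma adjusted p = 1.3e-07). Those to siScramble cells were -0.42, -0.47, -0.24 and -0.60, with a mean of -0.43 ± 0.15 (SD, n = 4), or 74% of the siScramble level (limma adjusted p = 0.00466). No replicate of one comparison overlapped with those of the other. The probe was well above background on every array, and its median signal over background was 1.76 in wt cells, 9.54 in siScramble cells, and 6.05 and 5.84 in the si*Pax8* cells of the arrays with wt and with siScramble cells. The order was thus wt, si*Pax8*, siScramble. Within slides the wt comparison gave 1.18 to 1.21 and the siScramble comparison -0.62 to -0.35. The call against siScramble cells lay close to the threshold and was lost in 9 of 17 alternatives, among them without any 1 replicate (-0.5 to -0.38, limma adjusted p = 0.00553 to 0.0356), with all 17 values below 0. With Agilent's processed intensities the ratio to wt cells was 2.64 (limma adjusted p = 0.000406).

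*Ccl20*, the ligand of *Ccr6* on dendritic and lymphoid cells, was not well above background on any array (probe A_43_P11985, NM_019233). Its signal over background lay between 0.941 and 1.36 over all hybridizations, so that no fold is given for it.

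Among the CXC ligands of neutrophils, *Cxcl1* was higher against wt cells and *Cxcl2* was not measurable. The log2 ratios of *Cxcl1* to wt cells were 1.25, 0.97, 0.97 and 0.91, with a mean of 1.02 ± 0.15 (SD, n = 4), a 2.03-fold level (probe A_42_P473398, NM_030845; limma adjusted p = 1.96e-06). Relative to siScramble cells they were 0.52, 0.38, 0.23 and 0.29, with a mean of 0.35 ± 0.13 (SD, n = 4; limma adjusted p = 0.00609), just short of the threshold. It passed with the replicate number as a block (limma adjusted p = 0.0017), a fit to single arrays in place of averaged dye swaps. The correlation between arrays of a replicate was estimated there at -0.115, so dye swaps counted nearly as independent samples. That pass therefore does not rest on more replicates. Replicate 1 was the highest in both comparisons, and the 2 sets of values did not overlap. The probe was well above background on all arrays, with a median signal over background of 3.59 in wt, 6.76 in siScramble, and 9.61 and 8.79 in si*Pax8* cells. Within slides the wt comparison gave 0.91 to 1.18 and the siScramble comparison 0.22 to 0.43. With si*Pax8* in Cy3 alone *Cxcl1* passed against siScramble cells (0.48, limma adjusted p = 2.84e-05), and with si*Pax8* in Cy5 alone it did not (0.23, limma adjusted p = 0.111). With Agilent's processed intensities its ratio to wt cells was 1.65 (limma adjusted p = 0.00107).

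*Cxcl2*, whose promoter is printed above beside that of *Cxcl1*, was not well above background on any of the 16 arrays in either channel (probe A_44_P515197, NM_053647). Its signal over background ranged from 0.828 to 2, and the median was 1.02 in wt, 1.22 in siScramble, and 1.08 and 1.31 in si*Pax8* cells. These levels set no fold.

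The ligands of *Cxcr3* split in the same way, with *Cxcl10* well above background on every array and *Cxcl9* at background. *Cxcl10*, an interferon-induced attractant of activated T cells, had log2 ratios to wt cells of 2.10, 1.61, 1.70 and 1.79, with a mean of 1.80 ± 0.21 (SD, n = 4), a 3.48-fold level (probe A_44_P1039128, NM_139089; limma adjusted p = 3.57e-07). Those to siScramble cells were 0.34, 0.14, -0.07 and -0.06, with a mean of 0.09 ± 0.19 (SD, n = 4; limma adjusted p = 0.591) and a 95% confidence interval of -0.07 to 0.24. The replicates against siScramble cells thus fell on both sides of 0. The median signal over background was 8.4 in wt, 33.5 in siScramble, and 36 and 35.1 in si*Pax8* cells, with every array well above background. Within slides the ratio to wt cells ranged from 1.62 to 2.06 and that to siScramble cells from 0.03 to 0.23. *Cxcl9*, which signals through the same receptor, was well above background on 1 of 8 arrays in wt cells, 1 of 16 in si*Pax8* cells and none in siScramble cells (probe A_44_P1043157, NM_145672), with a signal over background of 1.05 to 1.9.

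**Figure D2:**
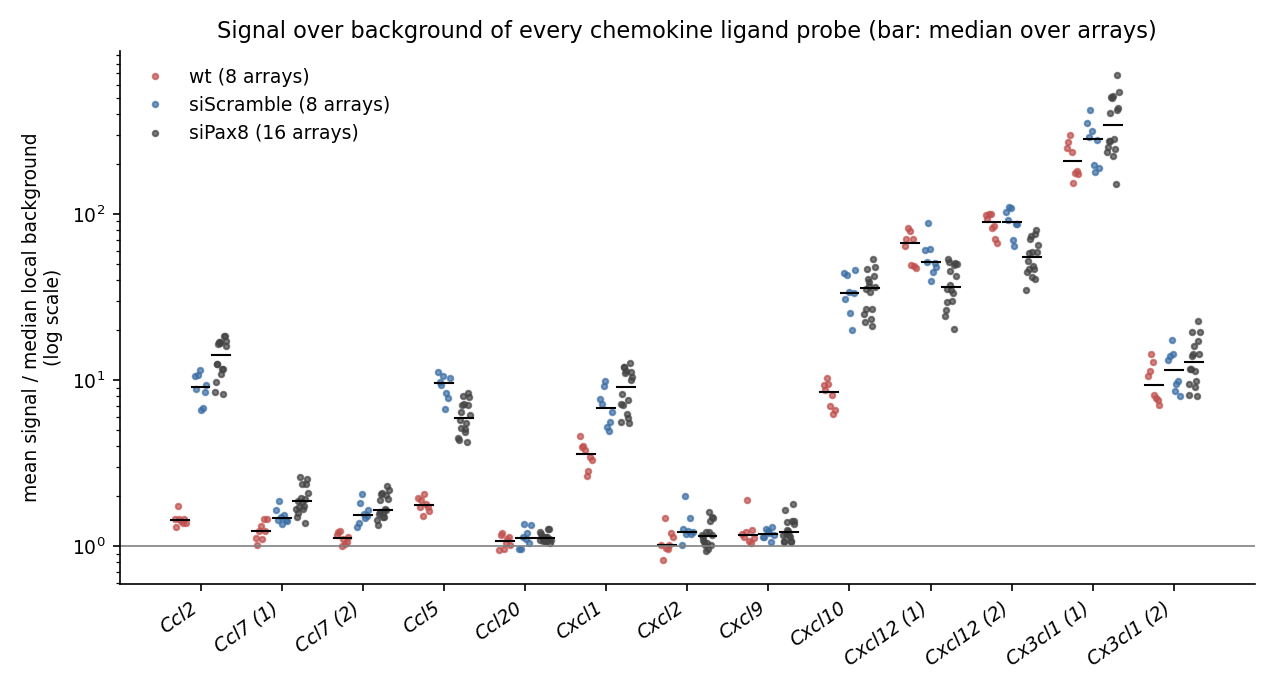
Mean spot signal divided by the median local background, on a log axis, of the 13 chemokine probes in wt (red, 8 arrays), siScramble (blue, 8 arrays) and si*Pax8* cells (grey, 16 arrays), where points are arrays and bars are medians; probes are numbered by their order in the list of each gene, as in the plot of replicate ratios. *Ccl20*, *Cxcl2* and *Cxcl9* lie near 1 in every group, and *Ccl7* is dim in every group. *Ccl2* lies near background in wt cells only, and *Ccl5* is lowest there, with a median of 1.76. Levels of different probes are not comparable with each other.

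*Cxcl12*, a constitutive chemokine that retains *Cxcr4*-bearing cells in tissues, was the member whose ratios lay below 0 in both comparisons. Its probes belong to different transcripts, NM_001033883 for A_44_P337351 and NM_022177 for A_44_P1034439. The first gave log2 ratios to wt cells of -0.69, -0.75, -0.67 and -0.75, with a mean of -0.72 ± 0.04 (SD, n = 4; limma adjusted p = 6.15e-07), or 60.9% of the wt level. The second gave -0.50, -0.85, -0.73 and -1.05, with a mean of -0.78 ± 0.23 (SD, n = 4; limma adjusted p = 6.13e-05), or 58.2%. All 8 values were below 0, and the second probe varied more between replicates.

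Against siScramble cells A_44_P337351 gave -0.43, -0.49, -0.49 and -0.45, with a mean of -0.46 ± 0.03 (SD, n = 4; limma adjusted p = 2e-04), or 72.5% of the siScramble level. A_44_P1034439 gave -0.12, -0.34, -0.43 and -0.64, with a mean of -0.38 ± 0.22 (SD, n = 4; limma adjusted p = 0.0234), which did not pass. The probes differed from each other by -0.07 ± 0.20 against wt and 0.08 ± 0.21 against siScramble cells (SD, n = 4; exact sign-flip p = 0.625 and 0.5), less than their spread. Both were well above background on every array. For A_44_P337351 the median signal over background was 88.9 in wt, 89.1 in siScramble, and 55 and 53.6 in si*Pax8* cells. Within slides its ratio was -0.74 to -0.69 in the wt and -0.53 to -0.39 in the siScramble comparison. With Agilent's processed intensities the second probe fell short against wt cells (limma adjusted p = 0.00646).

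*Cx3cl1*, a chemokine with a mucin stalk and a membrane anchor that binds *Cx3cr1*, passed as higher against both controls by each of its probes (NM_134455). Probe A_44_P116591 gave log2 ratios to wt cells of 0.82, 0.70, 0.73 and 0.67, with a mean of 0.73 ± 0.06 (SD, n = 4), a 1.66-fold level (limma adjusted p = 9.92e-07). Relative to siScramble cells it gave 0.53, 0.65, 0.34 and 0.46, with a mean of 0.49 ± 0.13 (SD, n = 4), a 1.41-fold level (limma adjusted p = 0.00182). All replicates were above 0 and the highest value against siScramble cells lay just under the lowest against wt cells.

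Probe A_44_P116597 showed less change, with 0.37, 0.38, 0.33 and 0.33 against wt cells, a mean of 0.35 ± 0.03 (SD, n = 4; limma adjusted p = 2.8e-05). With siScramble cells as the control it gave 0.38, 0.30, 0.24 and 0.26, a mean of 0.30 ± 0.06 (SD, n = 4; limma adjusted p = 0.00243). The first probe exceeded the second by 0.38 ± 0.06 against wt cells and by 0.20 ± 0.11 against siScramble cells, in 4 of 4 replicates each (SD, n = 4; exact sign-flip p = 0.125, the smallest possible).

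The ratio of *Cx3cl1* to siScramble cells differed between the dye orientations. For A_44_P116591 it was 0.83 with si*Pax8* RNA in Cy3 (limma adjusted p = 7.93e-06) and 0.16 with si*Pax8* RNA in Cy5 (limma adjusted p = 0.342), where single arrays ranged from -0.12 to 0.36. For A_44_P116597 it was 0.43 and 0.16 (limma adjusted p = 2.23e-05 and 0.212). Against wt cells the single arrays of the first probe lay between 0.82 and 0.97 in Cy3 and between 0.51 and 0.67 in Cy5, all above 0. Within slides its ratio was 0.68 to 0.76 in the wt and 0.29 to 0.70 in the siScramble comparison. With Agilent's processed intensities neither probe passed against siScramble cells (limma adjusted p = 0.0503 and 0.0562), and A_44_P116597 fell short against wt cells (limma adjusted p = 0.00785). With the replicate number as a block A_44_P116591 did not pass against siScramble cells (limma adjusted p = 0.0129), nor did it without replicate 1, 2 or 4 (limma adjusted p = 0.00954, 0.0109 and 0.0076). Without any 1 replicate the smaller probe fell short against siScramble cells (0.27 to 0.32, limma adjusted p = 0.00755 to 0.0239).

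**Figure D3:**
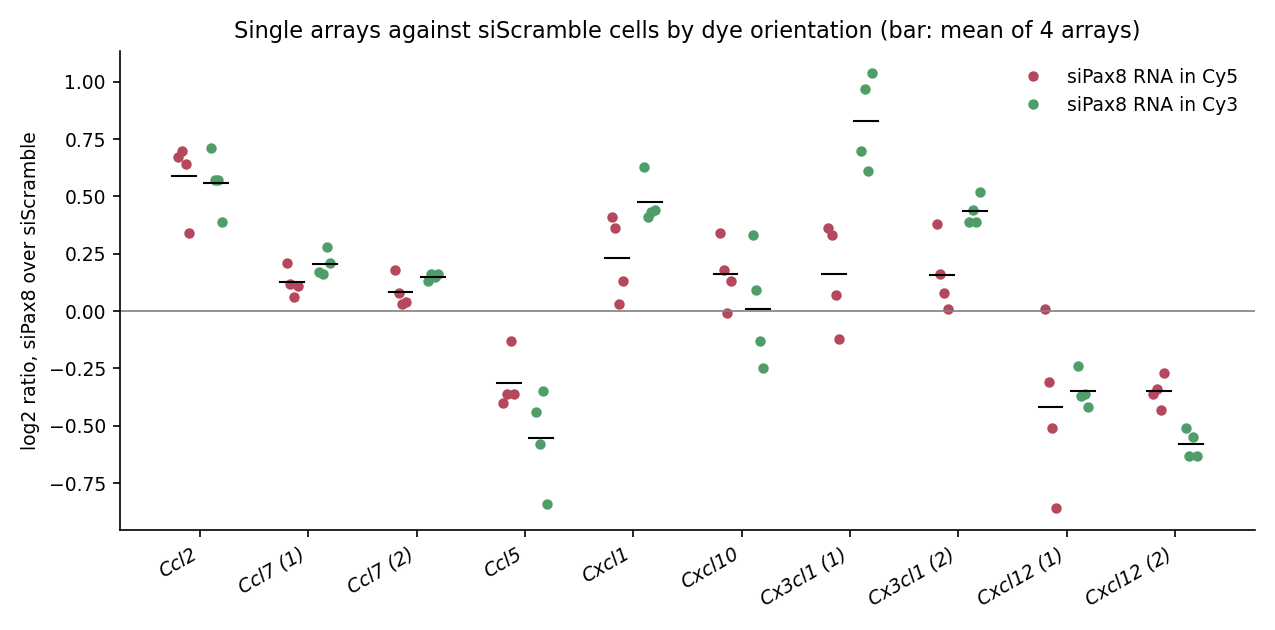
Log2 ratio of si*Pax8* over siScramble cells on single arrays, for the probes of the 7 measured chemokine genes, with si*Pax8* RNA in Cy5 (red) or in Cy3 (green), where bars are means of 4 arrays. For *Cx3cl1* (1) all green points lie above all red points, with means of 0.83 and 0.16, whereas for *Ccl2* the means were 0.56 and 0.59.

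The difference between the comparisons, the log2 ratio to wt minus that to siScramble cells, is an indirect measure of siScramble over wt cells, which were on no array together. It passed the threshold for 4 of the 10 genes, *Ccl2*, *Cxcl10*, *Ccl5* and *Cxcl1*, all with the higher ratio against wt cells. Of all named genes 1.78% passed with a higher and 2.79% with a lower ratio against wt cells. The difference was 1.82 for *Ccl2* (95% confidence interval 1.67 to 1.96; limma adjusted p = 5.73e-07) and 1.71 for *Cxcl10* (1.47 to 1.96; limma adjusted p = 9.14e-06). It was 1.63 for *Ccl5* (1.48 to 1.79; limma adjusted p = 7.52e-07) and 0.67 for *Cxcl1* (0.49 to 0.85; limma adjusted p = 0.000507). For *Cxcl10* and *Ccl5* the difference was thus about as large as, or larger than, the whole ratio of si*Pax8* to wt cells. The difference of *Ccl2* was 4.23 and that of *Ccl5* 3.25 with Agilent's processed intensities (limma adjusted p = 3.47e-05 and 2.12e-05).

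The remaining measured genes differed less between the comparisons. *Cxcl12* gave -0.25 by A_44_P337351 (-0.33 to -0.17; limma adjusted p = 0.00141) and -0.40 by A_44_P1034439 (-0.67 to -0.13; limma adjusted p = 0.0653), so that 1 of its 2 probes passed. That call was lost in 8 of 16 alternatives, among them without any 1 replicate (-0.28 to -0.23), with the slide as a block, with either dye orientation alone and with Agilent's processed intensities (limma adjusted p = 0.0068 to 0.0698). The *Cx3cl1* probes gave 0.24 (0.10 to 0.37; limma adjusted p = 0.0358) and 0.06 (-0.03 to 0.14; limma adjusted p = 0.497). The *Ccl7* probes gave 0.14 (0.06 to 0.23; limma adjusted p = 0.0388) and 0.21 (0.12 to 0.30; limma adjusted p = 0.00711). The difference of *Cxcl1* fell short without replicate 2 or 3 (0.65 to 0.70 over the replicates left out, limma adjusted p up to 0.00818).

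**Figure D4:**
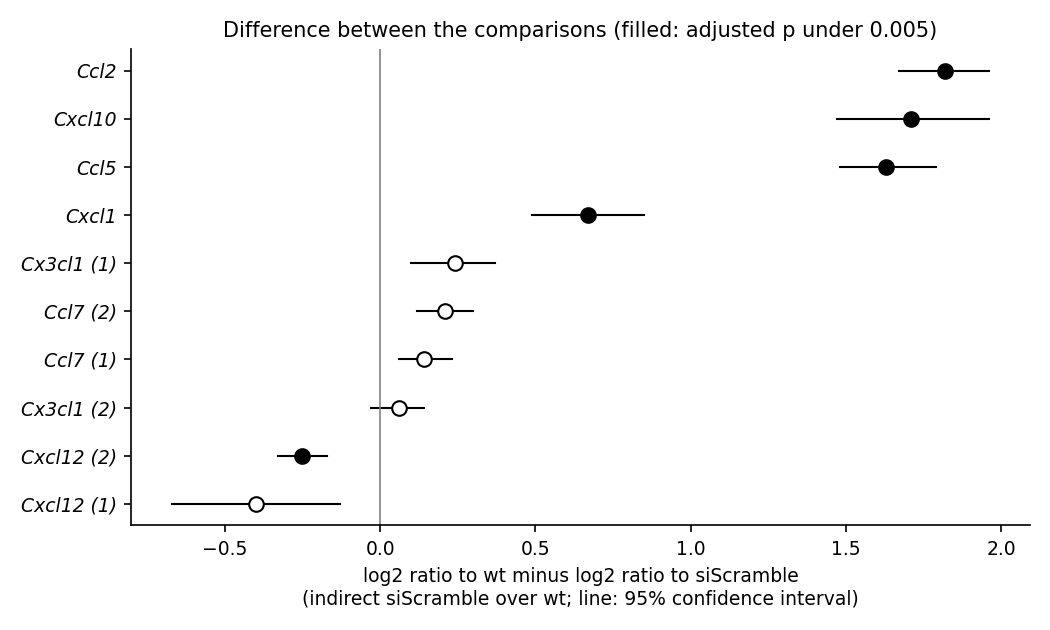
Difference of the log2 ratios of si*Pax8* to wt and to siScramble cells for the 10 probes of the measured chemokine genes, with 95% confidence intervals; filled points passed the adjusted p threshold. *Ccl2*, *Cxcl10* and *Ccl5* lie between 1.63 and 1.82, *Cxcl1* at 0.67, and the other probes between -0.40 and 0.24.

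The other chemokine ligands were mostly silent in these cells. Of 18 measured ligands outside the 10 members, 8 were not well above background on any array and 2 reached it on at least 8 of 16 arrays in si*Pax8* cells. *Cxcl11*, the remaining *Cxcr3* ligand, was above background on 14 of 16 arrays in si*Pax8* cells, 4 of 8 in siScramble cells and none of 8 in wt cells. Its channel level in si*Pax8* cells was at least 1.25-fold that of wt cells, with mean log2 levels of 6.77 against a floor of 6.45 (limma adjusted p = 0.000173). That floor was also its measured mean level in wt cells. *Ccl11* was above background on 8 of 16 arrays in si*Pax8*, 8 of 8 in wt and 5 of 8 in siScramble cells. Opposite in sign to *Cxcl11*, it gave -0.18 ± 0.10 against wt cells and did not pass (SD, n = 4; limma adjusted p = 0.00819). *Cxcl11* was the only ligand of the 18 that passed against wt cells, beside 7.26% of all named genes that were higher. None passed against siScramble cells by limma, where 1 had an unadjusted p under 0.05. The medians over the 18 genes were -0.01 and 0.01.

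Of 16 measured chemokine receptors 12 were not well above background on any array, among them *Cxcr3*, *Cxcr2*, *Ccr2*, *Ccr6* and *Cx3cr1*. *Ccr4* and *Ccr7* were above background on 1 array each in si*Pax8* and in wt cells, and the receptors of *Cxcl12*, *Cxcr4* and *Ackr3*, on all arrays. *Cxcr4*, which signals migration, had a log2 ratio to wt cells of -0.44 ± 0.02 (SD, n = 4; largest limma adjusted p of its probes 9.5e-06), and *Ackr3*, a scavenger of *Cxcl12*, one of -0.49 ± 0.07 (SD, n = 4; limma adjusted p = 1.11e-05). Relative to siScramble cells they were 0.02 ± 0.05 and -0.06 ± 0.16 (SD, n = 4; limma adjusted p = 0.961 and 0.7). None of the 16 receptors passed against siScramble cells by limma, and 0 had an unadjusted p under 0.05. Of the 16 receptors 2 were lower than in wt cells and none higher, a share near the 9.46% of all named genes that were lower. *Cxcl12* and both of its receptors were lower than in wt cells, and of the 3 genes *Cxcl12* was also below siScramble cells, by 1 of its 2 probes.

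Among 21 measured inducers of chemokine genes, cytokines and transcription factors, 9 were higher than in wt cells and none lower, with a median log2 ratio of 0.21, beside 7.26% of all named genes that were higher and 9.46% that were lower. *Irf7*, a master factor of interferon responses, gave 2.36 ± 0.09 against wt and 0.74 ± 0.12 against siScramble cells (SD, n = 4; limma adjusted p = 7.42e-09 and 0.000334). *Irf9* and *Stat2*, parts of the interferon-activated transcription complex, gave 1.84 ± 0.19 and 0.41 ± 0.18 against wt cells (SD, n = 4; limma adjusted p = 2.05e-07 and 0.000772). Relative to siScramble cells the values of *Irf9* and *Stat2* were 0.21 and 0.14 and did not pass (limma adjusted p = 0.078 and 0.0783). The AP-1 genes *Jun* and *Fos* gave 0.92 ± 0.05 and 0.86 ± 0.05 against wt cells (SD, n = 4; limma adjusted p = 2.32e-07 and 2.74e-07), and 0.47 ± 0.10 and -0.22 ± 0.03 against siScramble cells (limma adjusted p = 0.00121 and 0.0038). *Fos* therefore changed direction between the comparisons, like *Ccl5*. Its call against siScramble cells was lost without any 1 replicate, where no inducer passed as lower. The count of inducers higher than in siScramble cells, 2 in the main fit, was 1 without replicate 1, 2 or 4. It was 0 with Agilent's processed intensities and 4 with si*Pax8* in Cy3 alone.

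*Tnf*, *Ifng* and *Il1a* were not well above background on any array, and neither was *Il6*. *Ifnb1*, chosen after its values were seen, was well above background on 16 of 16 arrays in si*Pax8* cells, 8 of 8 in siScramble cells and 1 of 8 in wt cells, so that it was higher than in wt cells (limma adjusted p = 2.32e-05) by a size these arrays do not settle. Its log2 ratio to siScramble cells was -0.02 ± 0.11 (SD, n = 4; limma adjusted p = 0.913). The NF-kappaB subunit *Rela* gave -0.03 ± 0.07 and 0.07 ± 0.08 (SD, n = 4; largest limma adjusted p of its probes 0.845 and 0.399). *Irf1*, another interferon regulatory factor, gave 0.25 ± 0.17 against wt cells and did not pass (SD, n = 4; limma adjusted p = 0.00918). *Irf7*, *Irf9* and *Stat2* were thus higher than in wt cells, as *Ccl2* and *Cxcl10* were, and their part in the chemokine ratios was not tested.

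Of 23 measured transducers of chemokine receptors against wt cells 1 was higher and 3 were lower (median log2 ratio -0.03), shares that lie under or near the 7.26% and 9.46% of all named genes. *Grk5*, a kinase that desensitizes receptors, was higher in both comparisons, at 0.66 ± 0.05 and 0.47 ± 0.06 (SD, n = 4; limma adjusted p = 1.18e-06 and 0.000341). *Rgs2*, which shortens G protein signals, gave -0.58 ± 0.11, the GTPase gene *Rac2* -0.51 ± 0.12 and the kinase gene *Grk2* -0.19 ± 0.08 against wt cells (SD, n = 4; limma adjusted p = 1.5e-05, 4.14e-05 and 0.00382). Of 12 measured genes for chemokine processing and surface binding, *Hpse*, the heparanase gene, was higher than in wt cells at 0.44 ± 0.08 and the syndecan gene *Sdc1* lower at -0.24 ± 0.10 (SD, n = 4; limma adjusted p = 2.99e-05 and 0.00168), each 1 of 12 and so near those shares of all named genes. *Mmp14*, a membrane protease that trims chemokines, was higher than in siScramble cells at 0.49 ± 0.06, whereas its ratio to wt cells was 0.12 ± 0.09 (SD, n = 4; limma adjusted p = 0.000334 and 0.0494).

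**Figure D5:**
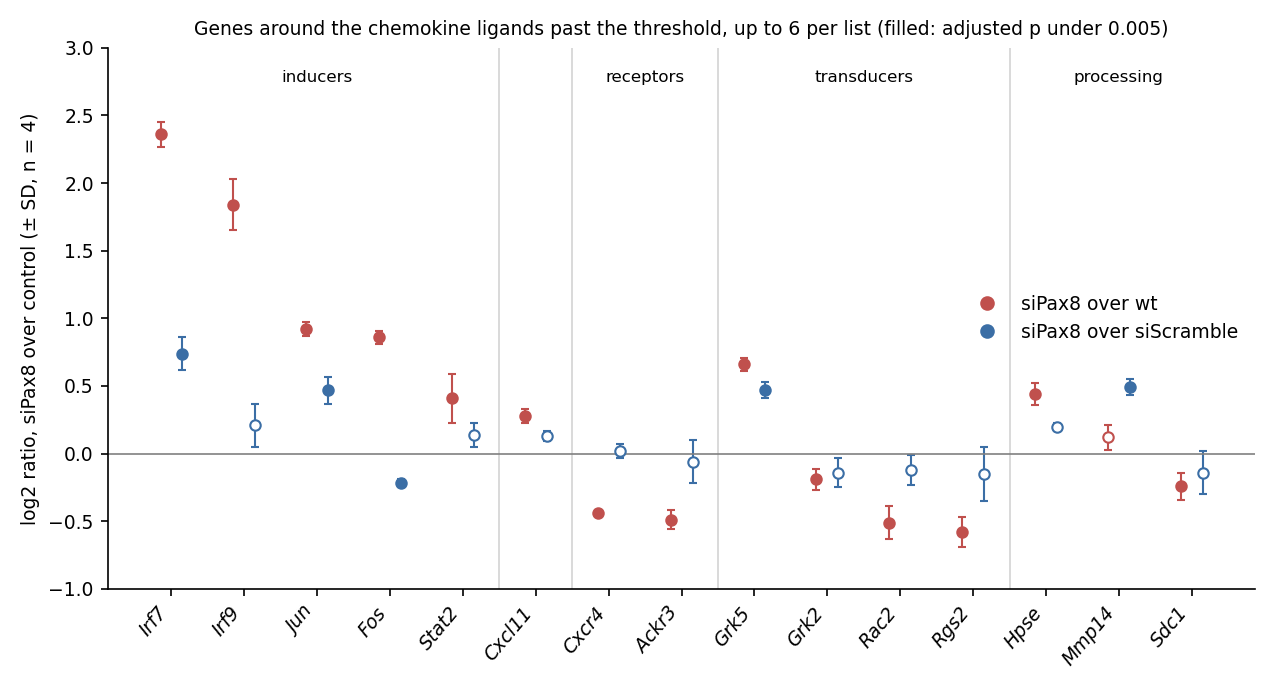
Log2 ratio of si*Pax8* over wt (red) and over siScramble cells (blue), mean ± SD (n = 4), of the inducers, the ligand *Cxcl11* (at background in wt cells, as *Ifnb1* was on all but 1 array), receptors, transducers and processing genes that passed in a comparison, at most 6 per list; filled points passed the threshold. The inducers lie above 0 against wt cells, led by *Irf7* at 2.36, and *Cxcr4* and *Ackr3* lie at -0.44 and -0.49 against wt cells and near 0 against siScramble cells.

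Markers of other cells were examined beside these values. Of 8 measured leucocyte markers *Cd68* was higher than in wt cells, at 0.30, 1 of 8 and so near the 7.26% of all named genes that were higher. None passed against siScramble cells by limma, where 1 had an unadjusted p under 0.05. *Cd14*, *Cd68* and *Lyz2* were above background on 16 of 16 arrays in si*Pax8* cells and *Csf1r* on 8. *Itgam* and *Cd8a* were not well above background on any array. The summed intensity of the 9 leucocyte probes was 1420 to 1780 in si*Pax8* and 1380 to 1520 in wt cells. In the siScramble comparison it was 1430 to 1720 in si*Pax8* and 1320 to 1670 in siScramble cells. None of the 2 endothelial, 4 fibroblast and 4 parafollicular markers measured passed in either comparison by limma, and 1 of these 10 had an unadjusted p under 0.05, against siScramble cells. The endothelial marker *Pecam1* and the fibroblast markers *Col3a1*, *Dcn* and *Thy1* were above background on no array, while the fibroblast marker *Col1a2* and the parafollicular marker *Calca* were above it on all arrays in every group. Whether more cells made a chemokine, or each cell made more, cannot be told apart on these arrays.

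The genes whose ratios followed each member most closely over the 8 replicate log2 ratios were noted as a description. The 8 values fall into the 2 comparisons, which share the si*Pax8* samples by the design scheme, so that a high correlation mainly reflects a like contrast between them. Among 6832 probes above background, *Ccl2* was followed by *Irf7* (Pearson's r = 0.997), *Eif2ak2* (0.996) and *Fos* (0.994), and *Cxcl10* by *Rsad2* (0.997), *Lgals9* (0.995) and *Egr1* (0.994). *Cxcl1* was followed by *Mitd1* (0.996), *Nfe2l2* (0.995) and *Gbp2* (0.995), and *Ccl5* by *Csrp3* (0.999), *Abca1* (0.993) and *Cck* (0.992). The nearest genes to the remaining probes were *Amz2* (0.987) and *Ccdc51* (0.994) for *Ccl7*, *Ttc12* (0.984) and *Apbb1* (0.992) for *Cxcl12*, and *Cr1l* (0.980) and *RT1-CE3* (0.972) for *Cx3cl1*. The sizes were not alike: *Rsad2*, an antiviral gene, had a mean log2 ratio of 4.08 to wt and 1.04 to siScramble cells, where *Cxcl10* had 1.80 and 0.09.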

How the data were processed

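RNA of PCCl3 cells was hybridized to two-colour Agilent rat arrays, and groups, dyes and replicate numbers were taken from the sample labels. The authors deposited a scanner file per array (Feature Extraction 10.1.1.1 by its header) with unnormalized intensities of each spot and its local background, intensities that Agilent's software had processed, and 0 or 1 flags (signal well above background, outlier), which are a different kind of deposited value. They also deposited a table of normalized log2 ratios, whose correlation with the ratios below was -0.999 to -0.992, which gives its direction as control over si*Pax8*. Its column medians lay between -0.00011 and 0.0068.

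In R 4.3.3 with limma 3.58.1, mean intensities were corrected by normexp (offset 50), normalized by loess within arrays (control and outlier spots at weight 0) and by quantiles over all channels, and outlier spots were then left out. Spots of a probe and dye swaps of a replicate were averaged to 4 log2 ratios per comparison, which were fitted with lmFit and eBayes, adjusted by Benjamini-Hochberg over 41012 probes, with the threshold of 0.005 that the study's methods name. The difference between comparisons was fitted to the 8 averaged ratios as separate groups. Levels in a channel are after loess and Aquantile normalization. A bound ("at least") is given for a probe that no array of a group measured. It takes, on each array, the lowest signal well above background or the probe's own level, whichever was higher. Deviations of same-numbered replicates correlated by 0.39, 0.17, 0.044 and 0.57 between the comparisons, so the numbers were not used to pair them, and by 0.12 to 0.58 between the dye orientations. The 4 slides each held 2 arrays of each comparison. The fits were tested on simulated data. The number of arrays limits the precision.

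RefSeq names (GRCr8) were found for 10768 probes by accession, and promoters come from the same source. The members, gene lists and motifs were chosen with earlier results of these data known. Named are the 10 members, *Pax8*, at most 6 genes past the threshold per list (chosen by the size of the log2 ratio; 1 such gene is not reported here), and the 3 genes of the highest Pearson correlation per member. Alternatives concerned background correction, normalization, the deposited table, dim probes, dyes, blocks, single replicates and spots. Against each control, fits with a dye term or a block took single arrays, so the dye swaps of a replicate entered as separate values. Columns with the authors' own comparisons (log ratio errors and p-values of each array) were not used, and neither were the ChIP-Seq data.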

Additional observations from a re-analysis of the deposited data

Results flagged for a closer look

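The log2 ratio of si*Pax8* to its control differed between the comparisons, by a test of the difference itself, for 5 probes of the chemokine ligands. This difference is an indirect measure of siScramble over wt cells. The log2 ratio to wt cells minus that to siScramble cells was 1.82 for *Ccl2*, 1.71 for *Cxcl10*, 1.63 for *Ccl5* and 0.67 for *Cxcl1*, and -0.25 for the *Cxcl12* probe A_44_P337351 (limma adjusted p = 5.73e-07, 9.14e-06, 7.52e-07, 0.000507 and 0.00141). The *Cxcl12* call was lost in 8 of 16 alternatives, without any 1 replicate among them (-0.28 to -0.23). Only *Ccl5* had all 4 replicates above 0 against wt and all 4 below 0 against siScramble cells. The siScramble cells were transfected, whereas the study describes the wt cells both with and without the transfection reagent. An effect of transfection cannot be told apart here from that of the scrambled siRNA. No replicate of the measured chemokine probes stood apart from the other 3 by Dixon's test.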

How the results depend on the processing

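No measured chemokine probe changed its direction under any of the alternatives run, in either comparison or in their difference. Against wt cells the number of genes past the threshold was 7 in all but 1 alternative: it was 5 with Agilent's processed intensities, where *Cxcl12* and *Cx3cl1* were lost. Against siScramble cells (3 genes) it was 0 with Agilent's processed intensities and with si*Pax8* in Cy5 alone, although 7 and 5 genes then had an unadjusted p under 0.05 from limma, 1 with loess only and with Aquantile, 5 with si*Pax8* in Cy3 alone, with a dye term and with the slide as a block, and 6 at a threshold of 0.05. It ranged from 0 to 1 when a replicate was left out. The fits with a dye term and with the slide as a block took single arrays, so their counts do not rest on more replicates. The difference between comparisons gave 3 to 5 genes against 4.

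With the replicate block the counts were 7 against wt, 3 against siScramble cells and 5 in the difference. Against each control that fit also took single arrays. Against siScramble cells *Cx3cl1* was then lost through A_44_P116591 (limma adjusted p = 0.0129) and *Cxcl1* gained (limma adjusted p = 0.0017), and in the difference the pairing added *Cxcl12* through its second probe (limma adjusted p = 0.000344). The 5 gene lists held 18, 16, 23, 12 and 21 measured genes. Of these lists together, 18 genes passed against wt cells, 12 higher and 6 lower, and 11 with Agilent's processed intensities. Of all named genes 7.26% were higher and 9.46% lower. Against siScramble cells 5 passed, 4 higher and 1 lower, where 1.67% of all named genes were higher and 1.31% lower. It was 0 genes with Agilent's processed intensities (18 with an unadjusted p under 0.05 from limma) and 2 and 13 with si*Pax8* in Cy5 or Cy3 alone. It was 9 with a dye term, 8 with the slide as a block and 2 to 4 with a replicate left out. With the replicate block these counts were 19 and 6. The cause of these shifts was not tested. Spots near background, as for *Ccl2* and *Ccl7* in wt cells, leave the size of a ratio dependent on the background correction.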
